A study of Homo sapiens with 4 samples.

Results

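The 8 genes described here take part in, or regulate, the movement of cholesterol out of cells and its carriage by high density lipoprotein (HDL). They are ABCA1, ABCG1, SCARB1, LCAT, PLTP, APOA1, NR1H2 and NR1H3. They were taken by gene symbol from the platform annotation, which gave 9 probes of the 26423 on the array and all 8 genes of the 17778 named. ABCG1 had 2 probes and the others 1 each. The set was selected on the log2 differences between berberine and control samples in these same arrays, so those differences are given as a description, with no p-value for a member. The counts of members past a threshold, given further on beside the share of all genes, support nothing.

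Cholesterol leaves a cell mainly through transporters in its membrane. ABCA1 hands phospholipid and cholesterol to lipid-poor apolipoprotein A-I, the product of APOA1, and so starts an HDL particle. ABCG1 and the receptor encoded by SCARB1 exchange cholesterol with the grown particle, and in liver the SCARB1 product takes up HDL cholesterol. In plasma, LCAT esterifies the cholesterol of HDL and PLTP moves phospholipid between lipoproteins. The liver X receptors, LXR alpha (NR1H3) and LXR beta (NR1H2), sense oxidised cholesterol and switch on ABCA1, ABCG1 and PLTP.

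The groups were HepG2 cells given berberine, a plant alkaloid, at 26.95 µM for 24 hours (n = 2) and HepG2 cells without berberine (n = 2). HepG2 is a human hepatocellular carcinoma line, and all cells grew in the same serum-containing medium. The description field of the samples conflicts with this, naming MDI-induced differentiation of 48 hours in all samples and 13.47 µM berberine in the treated ones. The title, source and treatment fields were followed, and as the labels do not name separate cultures, the spread between replicates may be technical.

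The array limits what a gene name means here. All 26423 probe identifiers carry mouse prefixes while the labels give human cells, so a value is what a mouse probe read. If the RNA was human, as labelled, a value stands only indirectly for the human transcript. The species of the RNA was not tested. Values are log2(intensity + 1) after quantile normalization unless called deposited intensities. As background served the 528 olfactory receptor genes, whose 95th percentile was 9.24, a level that the means of 1626 genes exceeded. None of the 7 measured hepatocyte markers reached that level. Among them the probe named AFP averaged 4.75 and that named ALB 8.35, so the labelled cell type was not borne out by these probes. The median deposited intensity was 77 and 85 in the berberine samples and 90 and 62 in the controls. Deposited values below 0 numbered 1 and 11 in the berberine samples and 0 and 269 in the controls. The signal of different probes depends on the probe. A probe's level was therefore set against 9.24 only as a rough mark of background, and was not read as the abundance of 1 gene against another.

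The ABCA1 promoter is shown because the ABCA1 probe was 1 of the 2 member probes above the background level. ABCA1 is also a textbook target of the liver X receptors. The human sequence was used, following the labelled species. The RefSeq table (GRCh38.p14) held start windows for 4 of the 8 genes. For ABCA1 the window covers 250 bases before and 50 from the annotated start, chr9:104928106-104928405, on the minus strand. Capitals mark an E-box and, nearer the start, a match to the LXR element.
ABCA1 promoter: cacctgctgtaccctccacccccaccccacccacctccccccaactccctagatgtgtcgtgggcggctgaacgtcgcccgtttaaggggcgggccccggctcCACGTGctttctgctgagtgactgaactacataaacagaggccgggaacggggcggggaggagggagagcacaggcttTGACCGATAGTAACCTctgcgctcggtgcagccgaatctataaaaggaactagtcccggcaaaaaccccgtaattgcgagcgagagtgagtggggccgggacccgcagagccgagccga

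The LXR element was searched as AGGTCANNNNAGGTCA, a direct repeat with 4 free bases, on both strands and with up to 2 mismatches in its 12 fixed positions. The ABCA1 match lay from 69 to 54 bases before the start (offsets -69 to -54), on the opposite strand, where it reads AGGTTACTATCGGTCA with 2 mismatches. Such a match occurred in 2.34% of all 35116 windows of this length. The E-box CACGTG lay at offsets -147 to -142 and occurred in 7.26% of windows. ABCA1 also held 3 GC boxes (GGGCGG, in 45.0% of windows) and 1 TATA box (TATAAA, in 11.5%). No LXR element match was found in the 2 windows of PLTP, the 1 of NR1H2 or the 4 of NR1H3. A match describes the letters and says nothing of binding in these cells.

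ABCA1, the transporter that starts HDL, was lower with berberine. Its deposited intensities were 1927 and 2510 in the berberine samples, against 5089 and 3881 in the controls. On the normalized log2 scale the samples read 11.14 and 11.25 with berberine, against 12.14 and 11.94 without. Both berberine samples lay below both controls, and the nearest samples of the 2 groups were 0.68 apart, while samples within a group differed by 0.12 with berberine and 0.20 without. The group means were 11.20 ± 0.08 with berberine and 12.04 ± 0.14 without (SD, n = 2 each), a log2 difference of -0.84 with an SE of 0.13, or 0.558 times the control signal. Of the 528 olfactory receptor genes, 99.6% had a lower mean than this probe.

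ABCG1, which exports cholesterol to grown HDL, showed no such difference on either probe. The brighter probe had deposited intensities of 76 and 93 with berberine, against 90 and 69 in the controls. Its normalized values were 6.29 and 6.43 with berberine, against 6.31 and 6.41 without, so the groups overlapped, and the log2 difference was -0.0032 with an SE of 0.12. The dimmer probe had deposited intensities of 39 and 37 with berberine, against 40 and 22 without. Its normalized values, 5.15 and 5.08 with berberine against 4.93 and 5.29 without, overlapped too. Both probes lay inside the range of the olfactory receptor genes, where a difference in ABCG1 was not detectable above the background.

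SCARB1 encodes the HDL receptor of liver cells. Its deposited intensities were 231 and 248 with berberine, against 316 and 231 without. The normalized values were 8.06 and 7.92 with berberine, against 8.10 and 7.96 without, and the groups overlapped. The log2 difference was -0.04 with an SE of 0.13. This probe also lay below the background level of 9.24.

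LCAT, the plasma enzyme that esterifies HDL cholesterol and that the liver secretes, was the other member lower with berberine. Its deposited intensities were 917 and 968 in the berberine samples, against 2087 and 1777 in the controls. The normalized values were 10.10 and 9.92 with berberine, against 10.80 and 10.80 without. Both berberine samples lay below both controls, by 0.70 between the nearest samples. The berberine samples differed by 0.18 from each other, and the controls by 0.00081. The means were 10.01 ± 0.13 with berberine and 10.80 ± 0.00057 without (SD, n = 2 each), a log2 difference of -0.79 with an SE of 0.12, or 0.579 times the control signal. The near identity of the normalized controls did not hold in the deposited intensities above. Of the olfactory receptor genes, 99.1% had a lower mean than the LCAT probe.

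PLTP, the phospholipid transfer protein of plasma, had deposited intensities of 90 and 96 with berberine, against 117 and 74 without. Its normalized values were 6.60 and 6.52 with berberine, against 6.68 and 6.55 without, which overlapped. The log2 difference was -0.06 with an SE of 0.12.

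APOA1, the main protein of HDL, went slightly the other way from ABCA1 and LCAT. Its deposited intensities were 221 and 280 with berberine, against 269 and 199 without, and these overlapped. After normalization the values were 7.996 and 8.10 with berberine, against 7.88 and 7.73 without, and no longer overlapped, by a gap of 0.12. The log2 difference was 0.24 with an SE of 0.12, and it was -0.0092 with median centring, so its direction depends on the scaling. APOA1 averaged 7.93, below 9.24.

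The liver X receptors were both read by dim probes. NR1H2, the receptor found in most tissues, had deposited intensities of 107 and 113 with berberine, against 137 and 102 without. Its normalized values were 6.88 and 6.73 with berberine, against 6.93 and 6.90 without, which left a gap of 0.03 between the groups, and the log2 difference was -0.11 with an SE of 0.12. NR1H3, the form enriched in liver, fat and macrophages, had deposited intensities of 69 and 141 with berberine, against 77 and 109 without. Its normalized values were 6.15 and 7.08 with berberine, against 6.01 and 6.97 without. In each group the sample numbered 2 was about 1 log2 unit above the sample numbered 1, by 0.93 with berberine and 0.96 without. The log2 difference of NR1H3 was 0.12 with an SE of 0.48. It turned to -0.36 without control 1 and was 0.60 without control 2. Leaving out 1 control leaves the shift between sample numbers unbalanced. Among same-numbered samples the berberine value was slightly above the control value for both numbers.

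**Figure D1:**
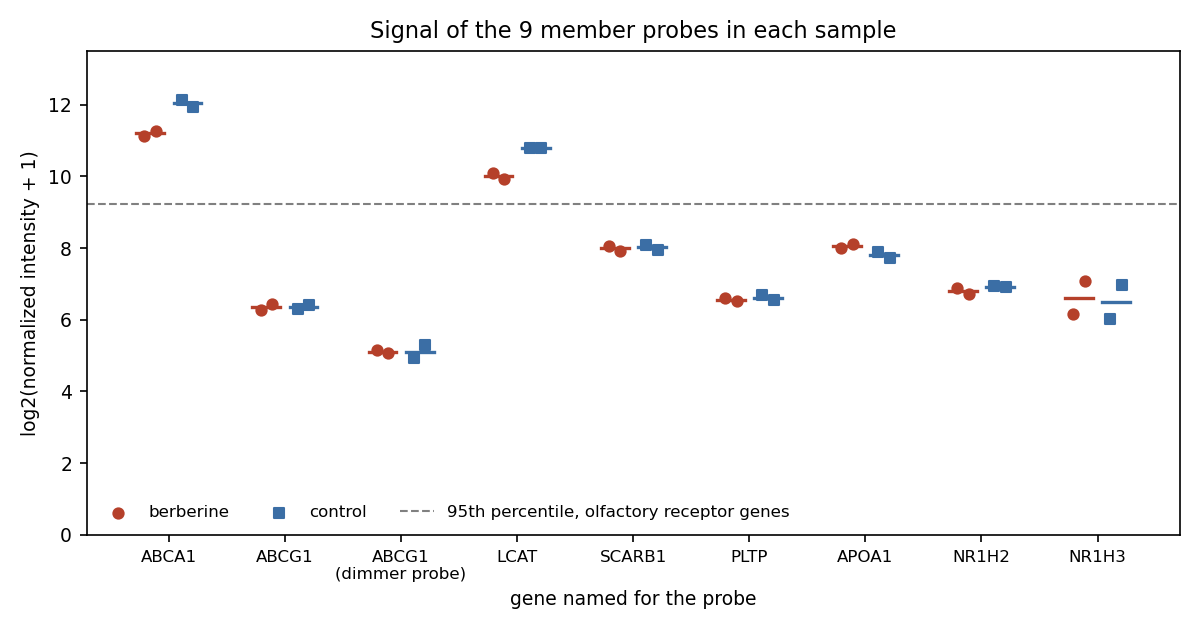
Normalized log2 intensity of each member probe (x axis) in each berberine sample (circles) and control sample (squares), with a line at each group mean and a dashed line at 9.24, the background level taken from olfactory receptor genes. The ABCA1 and LCAT samples lie above that line and their groups are apart, while the other 7 probes lie below it.

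The 8 genes were then set against the whole table. None of them passed limma's test at an adjusted p of 0.05 over all genes, which 0.0506% of genes passed. At an unadjusted limma p under 0.05 there were 2 of 8, ABCA1 and LCAT, against 13.0% of all genes. Both read above 9.24, where 453 of 1626 genes were under that unadjusted limma p. When limma's variance was fitted with an intensity trend, the same 2 genes passed at an adjusted p of 0.05, both lower, which 1.46% of all genes did in either direction and 0.501% did downward. Of the 1626 genes above 9.24, 8.24% passed with the trend, 2.89% downward. With any 1 of the 4 samples left out, the log2 difference ran from -0.94 to -0.74 for ABCA1 and from -0.88 to -0.70 for LCAT. Such fits keep 1 sample in a group, too few for a count of genes to be read. Because these genes were picked with their differences in view, nothing is read from these counts.

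The groups did not overlap for 4 of the 8 members, 3 lower and 1 higher with berberine, against 45.0% of all genes (23.3% lower and 21.7% higher). Above 9.24 the groups were apart lower for 641 and higher for 487 of 1626 genes. In the deposited intensities APOA1 and NR1H2 overlapped, which left 2 of 8 apart, ABCA1 and LCAT, against 24.1% of all genes. The median log2 difference was -0.05 over the 8 members, against -0.0091 over all genes. The range was -0.84 for ABCA1 to 0.24 for APOA1. Among the 1626 genes above 9.24, 59 had a more negative difference than ABCA1 and 62 a more negative one than LCAT, or 3.63% and 3.81% of them. The 6 other members lay between -0.11 and 0.24, and their probes were in the range of the olfactory receptor genes.

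**Figure D2:**
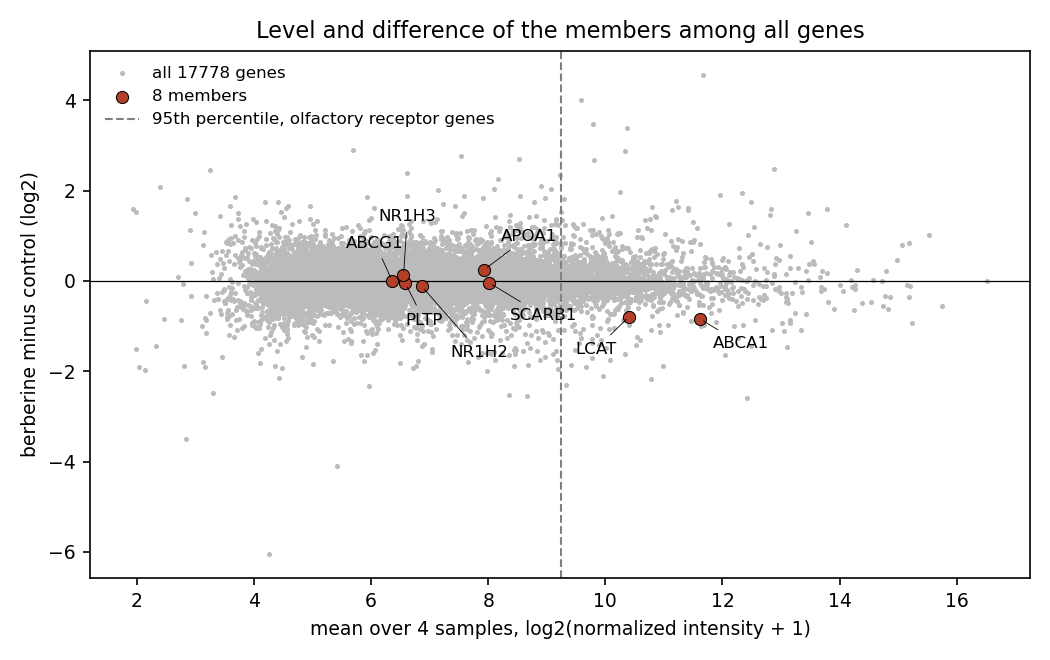
Log2 difference of berberine minus control (y axis) against the mean normalized log2 intensity over the 4 samples (x axis) for all 17778 genes (grey) and the 8 members (red), with a dashed line at 9.24. ABCA1 and LCAT lie to the right of the line with differences of -0.84 and -0.79, and the other 6 members lie to its left near 0.

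The size of the ABCA1 and LCAT differences depended on the scaling. Their direction stayed the same, but many of the settings could not change it. Several left the estimate as it was, and leaving out 1 sample cannot turn groups that do not overlap. ABCA1 ranged from -1.13 with median centring to -0.74 without control 1, and LCAT from -1.14 with median centring to -0.70 without berberine 2. The bright genes shifted as a whole with the scaling, since the median difference of the 1626 genes above 9.24 was -0.04 after quantile normalization, -0.26 as deposited and -0.38 with median centring. Relative to that median, ABCA1 was at -0.80, -0.75 and -0.75 under the same scalings, and LCAT at -0.75, -0.77 and -0.77.

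**Figure D3:**
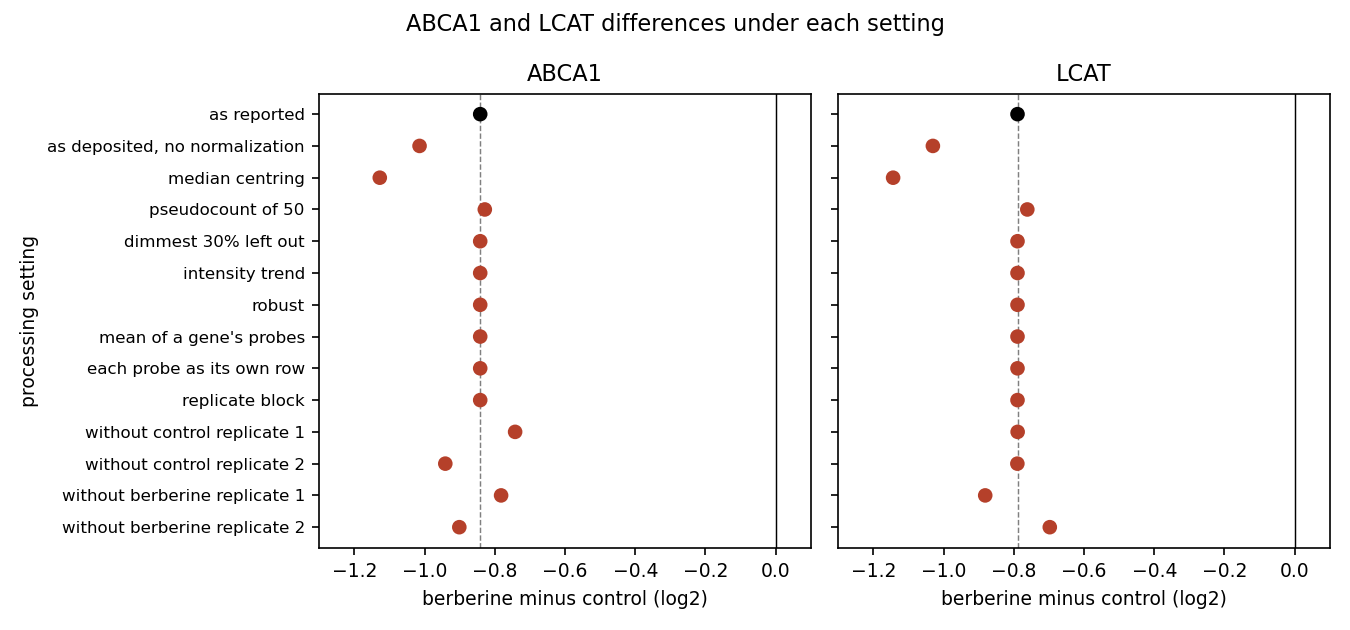
Log2 difference of berberine minus control (x axis) for ABCA1 and LCAT under each processing setting (y axis), with the reported value in black and a dashed line through it. All values lie below 0, from -1.13 to -0.74 for ABCA1 and from -1.14 to -0.70 for LCAT, though many of the settings could not change the sign.

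Markers of the labelled and of other cell types were read beside these values. The 7 hepatocyte markers went different ways. ALB was at -0.41, FGB at -0.45 and KRT18 at -0.08 on the log2 scale of berberine minus control, while APOB was at 0.37, AFP at 0.10 and TTR at 0.08. Their summed normalized intensity was 559.2 and 498.2 with berberine, against 811 and 758.2 without. The lower sum came mainly from the probes of ALB and KRT8, and is not a general fall of these markers. The largest log2 difference belonged to KRT8, a keratin of liver epithelial cells, at 3.70 and 3.04 with berberine against 7.58 and 7.35 without. KRT8 missed the threshold (limma adjusted p = 0.0688) and passed with an intensity trend (limma adjusted p = 0.0107). Its mean of 5.42 lay below the olfactory receptor median of 6.05, though both controls read above that median. All 4 samples read below 9.24, so this difference was read in the background range. No hepatocyte marker had a mean above 9.24. The 6 adipocyte markers summed to 859.4 and 867.8 with berberine, against 938 and 963.9 without, and were split in direction. FABP4 was at 1.00 and CIDEC at 0.13, while RETN was at -1.20, ADIPOQ at -0.64, LEP at -0.18 and PLIN1, the brightest of them, at -0.09. The 4 macrophage markers summed to 711.5 and 698.8 with berberine, against 598.5 and 573.5 without. Of these CD14 was at 0.40, while CD68 was at 0.02, CSF1R at -0.0089 and EMR1 at -0.19. No adipocyte or macrophage marker had a mean above 9.24, and none passed limma's test with or without the trend. The part of these markers in the ABCA1 and LCAT values was not tested, and fewer cells of a type cannot be told apart from less RNA per cell.

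Genes that work with the 8 members were compared in 5 lists, 83 genes in all, of which 67 were measured and 16 were not analysed here. In none of the 5 lists did a gene pass limma's test at an adjusted p of 0.05, and 9 of the 67 had an unadjusted limma p under 0.05, against 13.0% of all genes. With an intensity trend 2 of 67 passed, both higher, which 0.962% of all genes did in that direction. The groups did not overlap for 15 of the 67 higher and 18 lower, against 21.7% and 23.3% of all genes. The median log2 difference over the 67 genes was -0.05, against -0.0091 over all genes. The lists were chosen with earlier results of these data known. The counts and p-values given for them here and below are therefore a description and support nothing.

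The LXR partners and coregulators held both genes that passed with the trend. Of 12 measured, 2 were higher with berberine in the trend fit and 10 did not pass, with a median of -0.13. PPARD, the nuclear receptor PPAR delta, which shares the partner RXR with the liver X receptors, read 9.03 and 8.91 with berberine, against 7.97 and 7.76 without. This is a log2 difference of 1.11 ± 0.14 (SE), with a limma adjusted p of 0.123, and 0.0286 with the trend. NCOA1, a coactivator of nuclear receptors, read 9.84 and 9.78 with berberine, against 9.11 and 8.93 without. The log2 difference of 0.79 ± 0.12 (SE) had a limma adjusted p of 0.170, and 0.0417 with the trend. In both genes every berberine sample lay above every control, as held for 21.7% of all genes and 487 of the 1626 above 9.24. PPARD had a mean of 8.42, below 9.24. RXRB, one of the RXR partners of the liver X receptors, was at -0.15 with an SE of 0.11 and a mean of 10.15.

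Other genes that the liver X receptors are known to switch on did not pass either test. All 12 measured missed it, with or without the trend, and their differences ran from -0.29 to 0.51 with a median of -0.02. None had a mean above 9.24, so this list, like ABCG1 and PLTP, was read in the background range.

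Among HDL apolipoproteins, lipases and carried enzymes, 0 of 15 passed with or without the trend, and the median was 0.14. APOA5, a plasma protein that promotes triglyceride breakdown and the 1 gene of this list above 9.24, read 9.68 and 9.58 with berberine, against 9.39 and 9.35 without. It differed by 0.26 ± 0.11 (SE) on the log2 scale, with a limma adjusted p of 0.422.

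Among genes of cell cholesterol uptake, storage and transport, 0 of 14 passed with or without the trend, and the median was -0.05. OSBP, a carrier that moves sterol between membranes of the secretory pathway, was the 1 gene above 9.24. It read 10.65 and 10.64 with berberine, against 10.93 and 10.94 without, a log2 difference of -0.29 ± 0.10 (SE), and its limma adjusted p was 0.380. A second OSBP probe, with a mean of 4.60, was at -0.81.

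Among the other ABCA and ABCG transporters, 0 of 14 passed with or without the trend, and the median was -0.07. ABCG4, a relative of ABCG1 known mainly from brain, read 11.25 and 11.19 with berberine, against 11.49 and 11.62 without. It differed by -0.34 ± 0.12 (SE) on the log2 scale, at a limma adjusted p of 0.372. The probe named ABCA8A, for a mouse transporter of the ABCA family, read 10.51 and 10.60 with berberine, against 10.92 and 10.91 without. The log2 difference was -0.36 ± 0.11 (SE), at a limma adjusted p of 0.335. Berberine samples were below controls in both, as held for 641 of the 1626 genes above 9.24. Neither difference was as far from 0 as that of ABCA1.

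**Figure D4:**
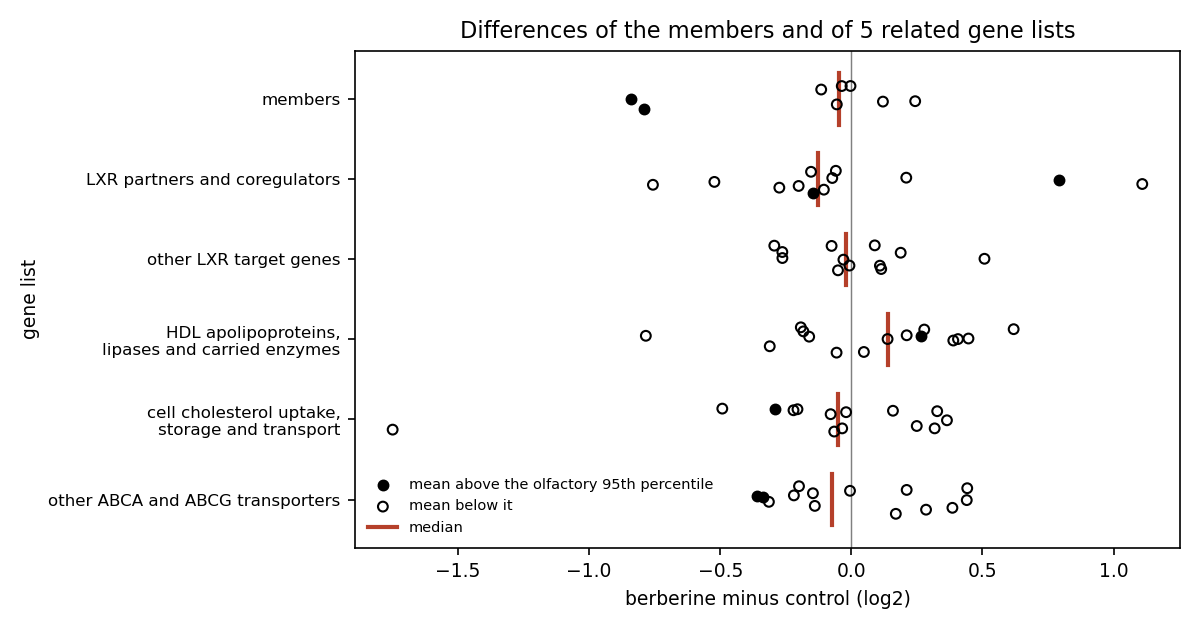
Log2 difference of berberine minus control (x axis) for the 8 members and the measured genes of the 5 related lists (y axis, jittered), filled where the mean lies above 9.24 and open below it, with a red line at each median. The medians lie between -0.13 and 0.14, and the filled members, ABCA1 and LCAT, are at -0.84 and -0.79.

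The genes most like ABCA1 and LCAT were found by the Euclidean distance between mean-centred log2 values over the 4 samples, among the 1625 other genes above 9.24. For ABCA1 they were PHB, a scaffold protein of the inner mitochondrial membrane (distance 0.047), RDBP (0.143) and SPG7, a mitochondrial protease (0.151). PHB read 9.27 and 9.44 with berberine, against 10.26 and 10.10 without. For LCAT they were FH1, named for fumarate hydratase of the citric acid cycle (0.116), OST4, a subunit of the enzyme that attaches sugar chains in the endoplasmic reticulum (0.143), and MST1 (0.149). FH1 read 10.13 and 9.92 with berberine, against 10.95 and 10.83 without. The distance between ABCA1 and LCAT themselves was 0.261. With 4 samples such likeness is a description, and it says nothing of shared function.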

How the data were processed

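Total RNA, labelled with Cy5 per the labels, was read on 4 arrays. The deposited table gives 1 intensity per probe on a linear scale, in whole numbers. What the authors did on scanner, background and normalization is, in the sources used here, not given. The platform annotation gave 20377 probes 1 gene symbol, 0 several and 6046 none, and symbols were used as listed.

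After quantile normalization, values below 0 became 0 and all values were put on the log2(value + 1) scale. The added 1 shrinks differences most near the floor, yet dim probes could still differ widely, as that of KRT8 did. The probe with the highest mean stood for each of 2252 genes with several probes. All 17778 genes were fitted with limma 3.58.1 (R 4.3.3; lmFit, eBayes, 2-sided, Benjamini-Hochberg, 2 residual degrees of freedom) and the code was tested on simulated data. An exact permutation test of 1 value cannot go below 0.333 here. The number of arrays limits the precision. Figures used matplotlib 3.10.9.

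The members and lists were chosen with earlier results of these data known, and the olfactory receptor background was taken from such results. Named genes were every member probe, list genes past a threshold with or without the trend, the 2 brightest and the 2 with the largest difference among each list's genes above 9.24, and the 3 genes most like ABCA1 and LCAT. Genes of the marker lists were named as markers. SREBF2 and APOA2 were named after their values were seen. Alternatives were another scaling, a pseudocount of 50, leaving out the dimmest 30% of genes, trend or robust variance, other uses of several probes, a replicate block, each sample left out and, chosen after seeing the data, several of these with the trend.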

Additional observations from a re-analysis of the deposited data

How the results depend on the processing

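Over all genes, 9 passed limma's test (8 higher, 1 lower). The count was 2 (2 higher) as deposited, 0 with median centring, 251 with a pseudocount of 50, 138 without the dimmest 30% of genes, 260 with an intensity trend (171 higher, 89 lower), and 0 with each probe as its own row or with the replicate block. Fits with any 1 sample left out keep 1 sample in a group, too few for a count to be read. With the trend the count was 283 as deposited (99 higher, 184 lower), 188 with median centring (59 higher, 129 lower) and 202 with the replicate block. Without the trend, an unadjusted limma p under 0.05 held for 2247 genes with median centring and 1878 with the replicate block. With each probe as its own row it held for 3101 probes. Of the members 0 passed, against 2 with a pseudocount of 50, with the trend, and with the trend as deposited (ABCA1 and LCAT each time), and 1 with the trend and median centring (LCAT). Of the listed genes 0 passed, against 2 with a pseudocount of 50 or the trend (PPARD and NCOA1), and 1 with the trend as deposited (SREBF2), with median centring (PPARD) or with the replicate block (PPARD). For members and lists no other setting with all 4 samples changed the count of 0. The cause of these changes was not tested.

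ABCA1, LCAT and NR1H2 kept their sign under all 20 settings, many of which could not change it. Trend or robust variance, the replicate block, leaving out dim genes and probes as own rows left the reported estimates unchanged. So did the mean of a gene's probes for genes with 1 probe, such as ABCA1, LCAT and NR1H2. Leaving out 1 sample cannot turn a gene whose groups do not overlap, so the kept sign shows little beyond that. The sign turned for ABCG1 and NR1H3 under 6 settings each, SCARB1 under 4, and PLTP and APOA1 under 2 each. These numbers count the same estimate again where a setting was also run with the trend. The replicate numbers are not stated to mark pairs. Same-numbered samples' deviations correlated at 0.0904 across genes, and at 0.332 over the 1626 genes above 9.24, and with 2 pairs the numbers were not taken as pairing. With the replicate block 0 members passed with or without the trend. Signal over background limits 6 of the 8 members, whose probes read below 9.24.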

Other observations

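The 2 most negative log2 differences among the 67 listed genes, those of SREBF2 and APOA2, each depended on 1 sample. The probe used for SREBF2, the transcription factor that drives cholesterol synthesis and uptake when sterol is low, read 8.15 and 7.87 with berberine, against 8.70 and 10.82 in controls 1 and 2. The log2 difference was -1.75 with all samples and -0.69 without control 2. The probe for APOA2, the second main protein of HDL, read 7.30 and 9.04 in berberine 1 and 2, against 8.92 and 8.98 without. On the log2 scale it differed by -0.78 with all samples and 0.08 without berberine 1. Both genes had means below 9.24.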
